A study of Mus musculus with 9 samples.

Results

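A set of 10 genes of the cytosolic heat shock chaperone system were followed across 9 muscle constructs: Hspa4l, Hspa4, Hsph1, Hspa8, Hspa1a, Hspa1b, Hsp90aa1, Hsp90ab1, Dnajb1 and Hspb1. They were chosen by symbol around Hspa4l, which had been picked for its low level in irradiated constructs, so every comparison that involves those constructs is given below as a description. The 10 genes were 10 of the 40879 symbols listed and of the 18619 with a count in any library, and all 10 passed the filter on low counts. The constructs were made from C2C12, an established line of mouse myoblasts able to fuse into multinucleate myotubes after a change of medium, with the genotype given as WT. Cells were set in extracellular matrix derived from muscle tissue, kept for 2 days in growth medium and differentiated for 10 days in medium with 10% equine serum.

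The normal group was 3 constructs that received no radiation, and the irradiated group was 3 constructs given a single X-ray dose of 20 Gy, which the study used to induce senescence. The cocultured group was 3 constructs that were not irradiated themselves but shared a dish with an irradiated construct, and the question was what factors released by that neighbour do to them. All groups carry the same line, matrix and media, and since C2C12 is 1 clonal line, no other muscle background was sampled. The titles call the replicates biological, whereas the design text places 2 constructs of a condition in each dish and gives 2 samples for the normal and irradiated groups. Replicates may therefore share a dish, irradiated and cocultured libraries may be dish partners that no label names, and p-values measure only the spread between these libraries. In such bulk RNA, fewer cells of a type and less RNA per cell cannot be told apart.

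Cytosolic HSP70 proteins bind exposed hydrophobic stretches of unfolded client proteins in cycles of ATP hydrolysis. J-domain proteins start each cycle, and the HSP110 proteins act as nucleotide exchange factors that reset it. HSP90 takes over partly folded clients such as kinases and steroid receptors, and in muscle it also serves myosin folding, while small heat shock proteins hold unfolding proteins without ATP. Heat shock factor 1 (HSF1) drives many of these genes by binding repeats of GAA and its reverse complement in their promoters.

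Total counts ran from 4840993 to 8290468 per library. Libraries of 1 group also differed in make-up. Mature myotube markers took 14.1% of the counts of normal 3 and 10.7% of irradiated 1, against 0.673% to 2.17% in the other 7 libraries, and mitochondrial genes took 29.7% and 21.6% of those same libraries against 5.76% to 13.4%. Irradiated 2 and 3 had counts for 8306 and 8654 genes, where the highest library had 14159, and 20.8% and 17.3% of genes that average 20 to 50 CPM (counts scaled to a common library size) in the normal and cocultured libraries were at 0 in them. Choosing those genes by their level in the other groups itself favours zeros in irradiated libraries. All 15 myotube markers had counts in every library, as the labelled muscle cells should have, while the 8 macrophage markers summed to 0 to 32.7 CPM (Csf1r up to 20.6) and the 7 endothelial markers to 0 to 29.4 (Kdr up to 29.4). Lpl, on the adipocyte list, reached 711 CPM. Of the others on that list, Fabp4 reached 47.4 and Adipoq 6.81 CPM, both in normal 3. Lep and Cidec stayed at or under 3.92, and Plin1 was at 0 in every library. The fibroblast list, mostly Dcn and Col3a1, summed to 5658 to 18660 CPM. Of 10 markers of undifferentiated and dividing myoblasts, 9 to 10 had counts in normal and cocultured libraries and 5 to 6 in irradiated ones. Their median log2 difference was -2.42 for irradiated against normal (2 positive) and -2.20 for irradiated against cocultured (3 positive). The edgeR test called 0. Every irradiated library was below every normal one for 5 of them, and for 11.8% of all genes. The part of this in chaperone levels was not tested.

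Promoter windows are shown first for the member that the set was built around and for 3 members whose windows hold the short HSF1-type repeat. Each window runs from 250 bases before to 50 after a RefSeq start site (GRCm38.p6, a different build from the GRCm39 named for the counts). Of the 10 members, 7 had a window, and Hsph1 and Dnajb1 had 2 each. Capitals mark matches to GAANNTTC or TTCNNGAA, searched on both strands, each being its own reverse complement. The Hspa4l window is chr3:40745363-40745662 on the plus strand, Hsph1 is chr5:149636287-149636586 on the minus strand, Hspa1b is chr17:34959189-34959488 on the minus strand and Hspb1 is chr5:135887669-135887968 on the plus strand.
Hspa4l: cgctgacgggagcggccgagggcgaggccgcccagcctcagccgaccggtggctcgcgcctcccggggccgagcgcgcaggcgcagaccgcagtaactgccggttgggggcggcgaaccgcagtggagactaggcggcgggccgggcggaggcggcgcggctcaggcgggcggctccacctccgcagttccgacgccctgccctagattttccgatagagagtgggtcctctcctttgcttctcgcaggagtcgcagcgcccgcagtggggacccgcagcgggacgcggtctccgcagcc
Hsph1: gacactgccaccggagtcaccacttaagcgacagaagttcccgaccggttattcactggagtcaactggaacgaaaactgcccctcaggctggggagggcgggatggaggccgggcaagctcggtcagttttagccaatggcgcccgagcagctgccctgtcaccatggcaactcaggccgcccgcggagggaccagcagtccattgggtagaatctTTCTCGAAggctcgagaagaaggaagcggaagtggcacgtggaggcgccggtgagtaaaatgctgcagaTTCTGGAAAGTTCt
Hspa1b: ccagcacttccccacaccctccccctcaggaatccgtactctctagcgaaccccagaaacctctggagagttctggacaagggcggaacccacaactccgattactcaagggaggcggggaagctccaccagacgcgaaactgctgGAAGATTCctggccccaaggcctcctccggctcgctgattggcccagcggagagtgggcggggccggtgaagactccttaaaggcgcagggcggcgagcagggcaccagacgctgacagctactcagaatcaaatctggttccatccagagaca
Hspb1: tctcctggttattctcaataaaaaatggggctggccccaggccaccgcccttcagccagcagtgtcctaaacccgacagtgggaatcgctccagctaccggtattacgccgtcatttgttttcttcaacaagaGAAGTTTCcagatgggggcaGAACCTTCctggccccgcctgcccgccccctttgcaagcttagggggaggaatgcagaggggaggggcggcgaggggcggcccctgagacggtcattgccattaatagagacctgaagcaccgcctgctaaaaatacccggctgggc
The Hsph1 window shown held 3 matches, of which those at 36 to 43 and 41 to 48 bases from the start site overlap, so that 3 units stand in a row with gaps of 2 bases. Counted from the start site of the other Hsph1 window, the same 3 matches lie at -54 to -47, 15 to 22 and 20 to 27. Such a row of 3 units, on either strand, occurs in 198 of 32851 windows (0.603%), and the 8-base form in 4946 (15.1%). Hspb1 held 2 matches, at -117 to -110 and -97 to -90. Hspa1a and Hspa1b each held 1 match at -104 to -97, and their windows differ at 4 of 300 positions. The windows of Hspa4l, Hspa4 and Dnajb1 held no match, which says only that these letters are not within them. A match is a description of the sequence, not a measured binding site.

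Hspa4l (also called APG-1) is the HSP110 gene around which the set was built. Its normalised level, in CPM scaled by edgeR's TMM factors, was 220.8, 138.2 and 122.9 in normal 1 to 3, 40.7, 34.8 and 38.2 in irradiated 1 to 3, and 225.9, 233.3 and 374.1 in cocultured 1 to 3. Every irradiated library lay below every other library, and every cocultured library lay above every normal one, narrowly so for cocultured 1 against normal 1. Cocultured constructs averaged 278 ± 83.5 CPM, normal ones 161 ± 52.7 and irradiated ones 37.9 ± 2.95 (SD, n = 3). The log2 difference was -2.08 ± 0.37 (SE) for irradiated against normal and -2.87 ± 0.39 for irradiated against cocultured. These are the values Hspa4l was chosen for. The irradiated level was alike in the myotube-rich irradiated 1 and in the other 2 irradiated libraries, and without normal 3 and irradiated 1 the differences were -2.29 and -2.91.

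Cocultured against normal was not used in the choice of members, although it shares its normal and its cocultured libraries with comparisons that were. Hspa4l was 0.79 ± 0.36 higher on the log2 scale, which did not pass the test over 11980 genes (edgeR quasi-likelihood adjusted p = 1, range of the adjusted p over all settings 0.621 to 1). In simulated data for this comparison, with every gene at the common spread of these libraries, the same test recovered none of the planted changes. At a low spread it recovered 36% of 2-fold and 98% of 4-fold changes. The spread of Hspa4l itself was not simulated. An adjusted p of 1 or a count of 0 called therefore does not show that levels were alike. All 3 cocultured libraries were above all 3 normal ones. The size rested partly on single libraries: it was 0.52 without cocultured 3 and 1.11 without normal 1.

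The other HSP110 genes were less separated, a contrast that the choice of Hspa4l for its low irradiated level favours. Hspa4 (APG-2), a close relative of Hspa4l, measured 228.6, 187.0 and 205.2 CPM in normal, 141.8, 139.3 and 222.1 in irradiated and 252.7, 275.9 and 204.8 in cocultured libraries. Irradiated 3 lay within the range of the other groups, so no pair of groups was separate. Its cocultured-against-normal difference of 0.24 ± 0.32 (log2, SE) did not pass the test (edgeR adjusted p = 1). Hsph1 (HSP105), a heat-inducible HSP110, measured 177.0, 88.6 and 149.7 in normal, 56.0, 32.8 and 81.5 in irradiated and 72.1, 104.3 and 94.8 in cocultured libraries. Irradiated libraries were all below the normal ones but overlapped the cocultured ones, with log2 differences of -1.29 ± 0.46 and -0.67 ± 0.45. The cocultured level was 0.61 below normal on the log2 scale (-0.61 ± 0.45, edgeR adjusted p = 1), the opposite sign to that of Hspa4l, and it was -0.05 when scaled by library totals.

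The make-up of the HSP110 group was therefore examined within each library, where scaling between libraries cancels. The libraries read 3′ ends, so counts were not divided by gene length. Hspa4l made up 35.2%, 33.4% and 25.7% of the summed Hspa4l, Hspa4 and Hsph1 counts in normal, 17.1%, 16.8% and 11.2% in irradiated and 41.0%, 38.0% and 55.5% in cocultured libraries. The 3 groups did not overlap in this share. Hspa4 held 59.5% to 67.3% of the sum in irradiated libraries, against 30.4% to 45.9% in the other 6. The shares add up to the whole, so a lower Hspa4l share raises the rest. In normalised level, Hspa4 averaged 168 CPM in irradiated, 207 in normal and 244 in cocultured libraries. Hsph1 held 13.1% to 17.0% in cocultured libraries, below the 21.4% to 31.3% of normal ones.

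The choice did not use cocultured against normal, but it used comparisons that share these libraries. In cocultured libraries the Hspa4l share was 13.4 percentage points higher than in normal ones (44.9% ± 9.36 against 31.5% ± 5.05, SD, n = 3). The Hsph1 share was 12.3 points lower (14.7% ± 2.04 against 27.0% ± 5.07). Each gave a two-sided exact permutation p of 0.1, the smallest that 3 against 3 allows, and 0.133 after Benjamini-Hochberg adjustment over 4 such comparisons, so neither could pass 0.05. The shares are parts of 1 sum, so a higher Hspa4l share lowers the others and these are not independent results. The Hspa4 share was 40.4% ± 8.69 against 41.5% ± 4.52 (exact permutation p = 0.9, adjusted 0.9).

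**Figure D1:**
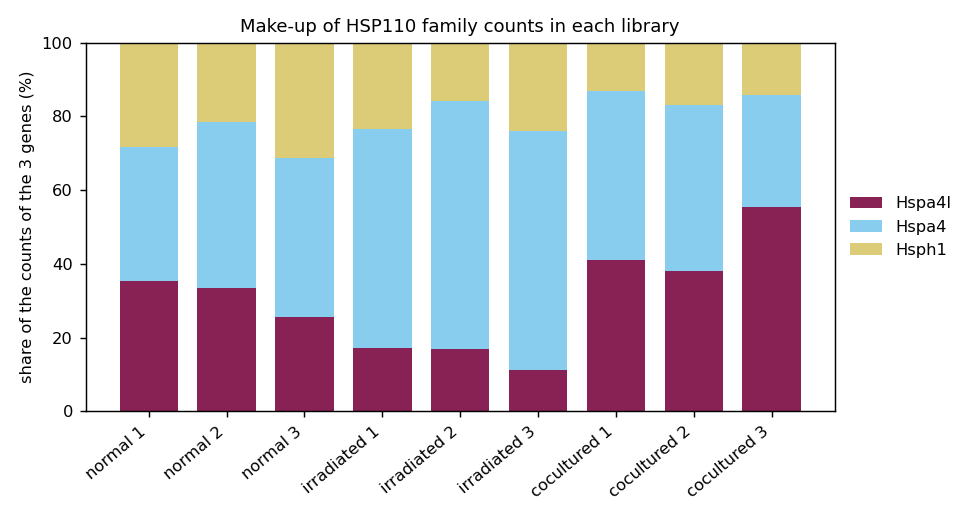
Share of Hspa4l, Hspa4 and Hsph1 in their summed counts (percent, y axis) in each of the 9 libraries (x axis), stacked to the whole. The Hspa4l share is 11.2% to 17.1% in irradiated libraries, 25.7% to 35.2% in normal and 38.0% to 55.5% in cocultured ones.

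The HSP70 genes behaved differently from one another. Hspa8 encodes HSC70, the constitutive cytosolic HSP70. Its level was 24.2, 41.4 and 148.9 CPM in normal, 132.2, 19.1 and 51.7 in irradiated and 50.03, 54.6 and 96.9 in cocultured libraries. Within the normal and the irradiated group, the highest value came from normal 3 and irradiated 1, the libraries rich in myotube markers. The group means were close (71.5 ± 67.6, 67.7 ± 58.2 and 67.2 ± 25.8 CPM, SD, n = 3), and the cocultured-against-normal difference was -0.09 ± 0.77 on the log2 scale (edgeR adjusted p = 1). It was 1.03 without normal 3, 0.086 without cocultured 1 and 0.045 without cocultured 2, so no direction is read from it, and the part of myotube content was not tested. Of the 75-base words in the last 500 bases of Hspa8 transcripts (GENCODE M21), 65.4% also occur in other genes, most of them in Gm15459, so its counts depend on how multiply aligned reads were treated.

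The stress-inducible pair Hspa1a and Hspa1b had few counts. Hspa1b was at 10.7, 18.4 and 2.2 CPM in normal, 2.1, 0 and 0 in irradiated and 20.4, 40.4 and 29.5 in cocultured libraries. Every cocultured library was above every normal one, and the only irradiated library with counts lay just under normal 3. The cocultured-against-normal difference was 1.53 ± 1.94 (log2, SE) and did not pass the test (edgeR adjusted p = 1). A count of 0 allows up to 0.282 CPM in irradiated 2 and 0.352 in irradiated 3, for counting error only, and these are the libraries with the most mid-abundance genes at 0, a feature whose part was not tested.

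Hspa1a followed another order. It measured 4.3, 4.5 and 0 CPM in normal, 25.6, 0 and 0 in irradiated and 2.4, 3.9 and 2.7 in cocultured libraries. Its highest value was the 120 counts of irradiated 1, the library where Hspa1b had 10. The Hspa1b to Hspa1a count ratio was thus 0.0833 in irradiated 1, against 2.48 and 4.05 in normal 1 and 2 and 8.64 to 10.9 in cocultured libraries. The irradiated-against-normal difference of 1.52 ± 2.92 (log2, SE) turned to -7.48 without irradiated 1, a fitted value that depends on the prior count because the other irradiated libraries are at 0. No 75-base word in the last 500 bases of Hspa1a transcripts is shared with Hspa1b.

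**Figure D2:**
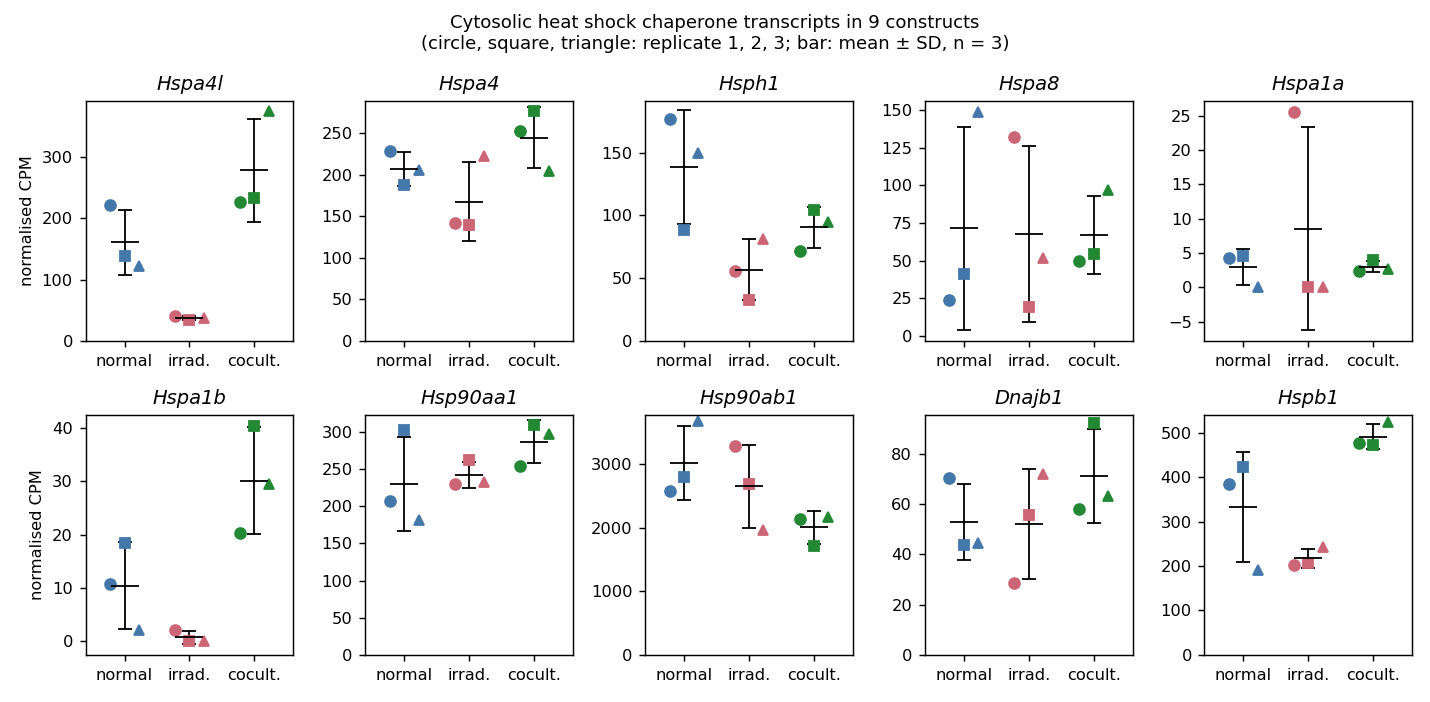
Normalised CPM (y axis, linear, a scale of its own for each gene) of the 10 chaperone genes in normal, irradiated and cocultured libraries; points are libraries, and lines and bars are means and SD (n = 3). Hspa4l is at 34.8 to 40.7 CPM in irradiated libraries and 122.9 to 374.1 in the others, while the inducible Hspa1a and Hspa1b stay at or under 40.4.

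The HSP90 genes showed smaller differences than Hspa4l, which the choice of Hspa4l favours where irradiated constructs are compared. Hsp90aa1, the stress-inducible HSP90-alpha, measured 207.0, 302.2 and 181.7 CPM in normal, 230.4, 262.2 and 233.3 in irradiated and 254.2, 309.5 and 297.1 in cocultured libraries. All 3 groups overlapped. The cocultured-against-normal difference was 0.32 ± 0.31 (log2, SE, edgeR adjusted p = 1). Hsp90ab1, the constitutive HSP90-beta, measured 2571, 2798 and 3681 in normal, 3284, 2692 and 1972 in irradiated and 2144, 1711 and 2169 in cocultured libraries. Every cocultured library lay below every normal one, with a difference of -0.59 ± 0.34 that did not pass the test (edgeR adjusted p = 1).

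That sign depends on scaling. Scaling by library totals in place of TMM moved the median over all genes from -0.07 to 0.48 for cocultured against normal, and Hsp90ab1 went to 0.02. Library totals include Gm26917, whose share was larger in every normal library than in any cocultured one. Its part in this shift was not tested. The Hsp90ab1 to Hsp90aa1 count ratio, which needs no scaling between libraries, was 12.4, 9.26 and 20.3 in normal, 14.3, 10.3 and 8.45 in irradiated and 8.43, 5.53 and 7.30 in cocultured libraries. It averaged 7.09 ± 1.47 in cocultured and 14.0 ± 5.66 in normal constructs (SD, n = 3), with no overlap and the smallest attainable exact permutation p of 0.1 (two-sided, adjusted 0.133).

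Dnajb1 (HSP40) encodes the J-domain partner of inducible HSP70. It measured 70.2, 43.9 and 44.3 CPM in normal, 28.5, 55.7 and 71.8 in irradiated and 58.0, 92.3 and 63.1 in cocultured libraries. The groups overlapped in every comparison, and cocultured against normal was 0.43 ± 0.55 (log2, SE, edgeR adjusted p = 1).

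Hspb1 (HSP27) encodes a small heat shock protein that binds actin and intermediate filaments in muscle. It measured 384.7, 423.4 and 191.5 CPM in normal, 201.6, 207.4 and 242.3 in irradiated and 476.3, 472.9 and 523.9 in cocultured libraries. Cocultured libraries were above all others, and the irradiated range overlapped the normal one only through normal 3, the myotube-rich library. Cocultured against normal was 0.56 ± 0.33 (log2, SE, edgeR adjusted p = 1), and 0.28 without normal 3 and irradiated 1. Irradiated against cocultured was -1.18 ± 0.34. Of its 75-base words near the 3′ end, 36.5% occur in other genes, Hsp25-ps1 among them.

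Counted over the members, cocultured against normal called 0 of 10 at an adjusted p under 0.05 (edgeR quasi-likelihood), where it called 0 of all 11980 genes (0%), and 1 member had an unadjusted p under 0.05, where 4.11% of genes did. DESeq2 called 178 genes in this comparison and limma voom 0, and neither called a member. Libraries were fully separate and higher in cocultured constructs for 3 members, Hspa4l, Hspa1b and Hspb1, where 5.66% of all genes were, and lower for 1, Hsp90ab1, where 7.51% were (4 of 10 members either way, 13.2% of genes). The members' median log2 difference was 0.28, against -0.07 over all genes.

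In the comparisons that the choice used, the counts are given with their background and nothing is read from them. Irradiated against normal called 0 of 10 members, where 0.0584% of genes were called (0.0501% lower, 0.00835% higher). An unadjusted p under 0.05 was found for 2 members and 10.3% of genes. In that comparison 3 members, Hspa4l, Hsph1 and Hspa1b, were separate and lower and 0 higher, where 11.8% of genes were lower, 3.94% higher and 15.7% either. Irradiated against cocultured called 1 member, Hspa4l, as 1 of 4 genes in all (0.0334%), and 3 members had an unadjusted p under 0.05, where 9.58% of genes did. The call of Hspa4l was lost when only the 6 libraries compared were fitted and without normal 1, normal 3 or cocultured 3. Hspa4l, Hspa1b and Hspb1 were separate and lower and 0 higher, where 10.6% of genes were lower, 3.9% higher and 14.5% either. The members' medians were -0.25 and -0.50, against -0.21 and -0.10 over all genes.

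**Figure D3:**
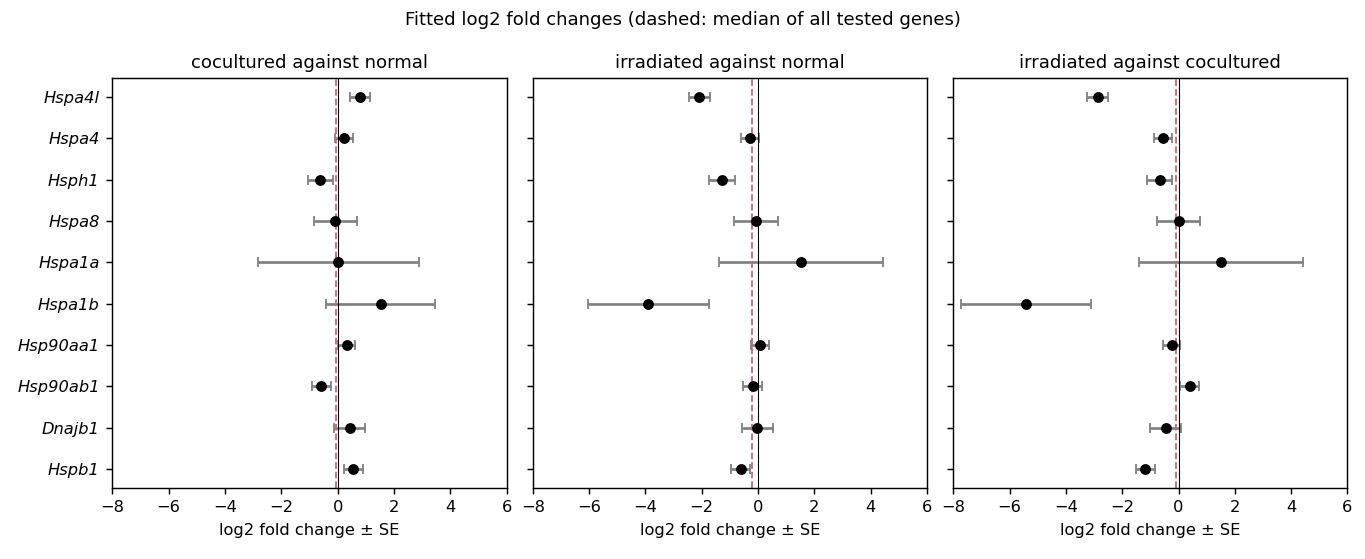
Log2 difference (x axis) with its SE (bars) of each chaperone gene (y axis) in cocultured against normal, irradiated against normal and irradiated against cocultured constructs. Hspa4l lies at 0.79, -2.08 and -2.87, while Hspa8, Hspa1a and Dnajb1 have bars that cross 0 in all 3 comparisons.

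Genes whose levels followed Hspa4l most closely were ranked by Pearson correlation of log2 normalised CPM over the 9 libraries, among 5973 genes averaging at least 20 CPM. The points share 3 groups of 3 libraries, so the values describe these libraries only. They include the irradiated libraries whose low Hspa4l values led to the choice. The ranking, within the member set too, therefore favours genes low in those libraries and is a description. The 6 highest were Dpysl2 (r = 0.964), Npy1r (0.952), Tshz3 (0.947), Fndc3b (0.947), Rnf11 (0.946) and Gap43 (0.940). Tshz3 averaged 123 CPM in cocultured constructs, 69.2 in normal and 23.5 in irradiated ones. Gap43, a growth-cone protein, was at 0 in the 3 irradiated libraries and averaged 51.0 CPM in normal and 54.0 in cocultured ones. Within the member set, Hspa1b (0.908) and Hspb1 (0.847) followed Hspa4l most closely and Hsp90ab1 least (-0.328), over the same 9 libraries.

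Other genes of the chaperone families were taken from lists, some of which also hold members of other compartments (Hspa5, Hspa9, Hyou1 and Hspa13 among the HSP70 and HSP110 genes, Dnajc3 and Sec63 among the J-domain genes, Hsp90b1 and Trap1 among the HSP90 cochaperones). No gene of these lists was called in any comparison by the edgeR test. Among 8 tested of 9 other HSP70 and HSP110 genes, the median log2 difference was -0.53 for cocultured against normal and -0.63 for irradiated against normal, with 0 called. Among 19 tested J-domain genes the medians were -0.23 and -0.22. Dnajc21, a J-domain protein of ribosome biogenesis, averaged 73.3 ± 11.8 CPM in irradiated constructs, 168 ± 6.14 in cocultured and 255 ± 64.2 in normal ones (SD, n = 3), and none of these ranges overlapped. Its irradiated-against-normal difference was -1.80 ± 0.34 and missed the threshold (edgeR adjusted p = 0.0932).

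Among 11 nucleotide exchange and HSP70 regulators, the medians were 0.18 for both comparisons with normal, and the mean of Bag1 was 125 ± 14.1 CPM in the irradiated group and 80.2 ± 28.2 in the normal one (SD, n = 3). Bag3, the cochaperone of chaperone-assisted autophagy in muscle, averaged 54.5, 55.4 and 66.8 CPM in normal, irradiated and cocultured constructs. Among 23 HSP90 cochaperones the medians were -0.19 and -0.06. Cdc37, which brings kinases to HSP90, was at 124 to 207 CPM in normal and 49.8 to 109 in irradiated libraries, without overlap (log2 difference -1.26 ± 0.41, edgeR adjusted p = 0.416). Unc45b, the myosin chaperone, reached 157 CPM in normal 3 and 107 in irradiated 1 but at most 25.7 in any other library.

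Among 6 tested of 7 other small heat shock proteins, the median log2 difference was -0.39 for cocultured against normal and 0.43 for irradiated against normal, each with 3 positive and 3 negative genes. For irradiated against cocultured it was 0.75, with 6 of 6 positive and 3 separate and higher (3.9% of all genes were), and 0 called. Of all 11980 genes, 5595 were positive in that comparison. Cryab, the alpha-B crystallin of the myofibril Z-disc, measured 93.2, 85.0 and 427 CPM in normal, 406, 371 and 373 in irradiated and 270, 227 and 175 in cocultured libraries. Irradiated Cryab was thus above cocultured in every library (0.77 ± 0.53, edgeR adjusted p = 0.728), whereas Hspb1 was below it. Hspb7 had 457 CPM in normal 3 and 360 in irradiated 1, the myotube-rich libraries, against 12.1 to 57.7 elsewhere. Hspb3 was at 0 in all normal libraries and also in irradiated 2 and cocultured 2, and at 6.86 to 28.3 CPM in the rest. The part of myotube content in the list was not tested.

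Heat shock factors and their regulators (8 of 9 tested) had medians of 0.02 and -0.04 against normal, with 0 called. Hsf1 itself had few counts, with means of 12.2 ± 9.70 CPM (normal), 6.60 ± 11.4 (irradiated) and 10.9 ± 2.71 (cocultured; SD, n = 3), and was at 0 in irradiated 2 and 3. Of 24 other HSF1 target genes, 15 had positive and 9 negative differences in each comparison with normal, with medians of 0.13 and 0.04. Of all 11980 genes, 5624 were positive for cocultured and 5007 for irradiated against normal. Among 14 genes of the CCT chaperonin ring and prefoldin, which fold actin and tubulin, the median was 0.08 for cocultured against normal, -0.14 for irradiated against normal and -0.45 for irradiated against cocultured. The subunit gene Cct6a averaged 217 ± 48.5 CPM in cocultured, 110 ± 30.7 in normal and 109 ± 11.4 in irradiated constructs, and Tcp1 averaged 147 ± 16.3, 125 ± 35.2 and 70.7 ± 14.1. Cct6a was separate and higher in cocultured libraries (0.98 ± 0.35) and missed the threshold (edgeR adjusted p = 1).

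**Figure D4:**
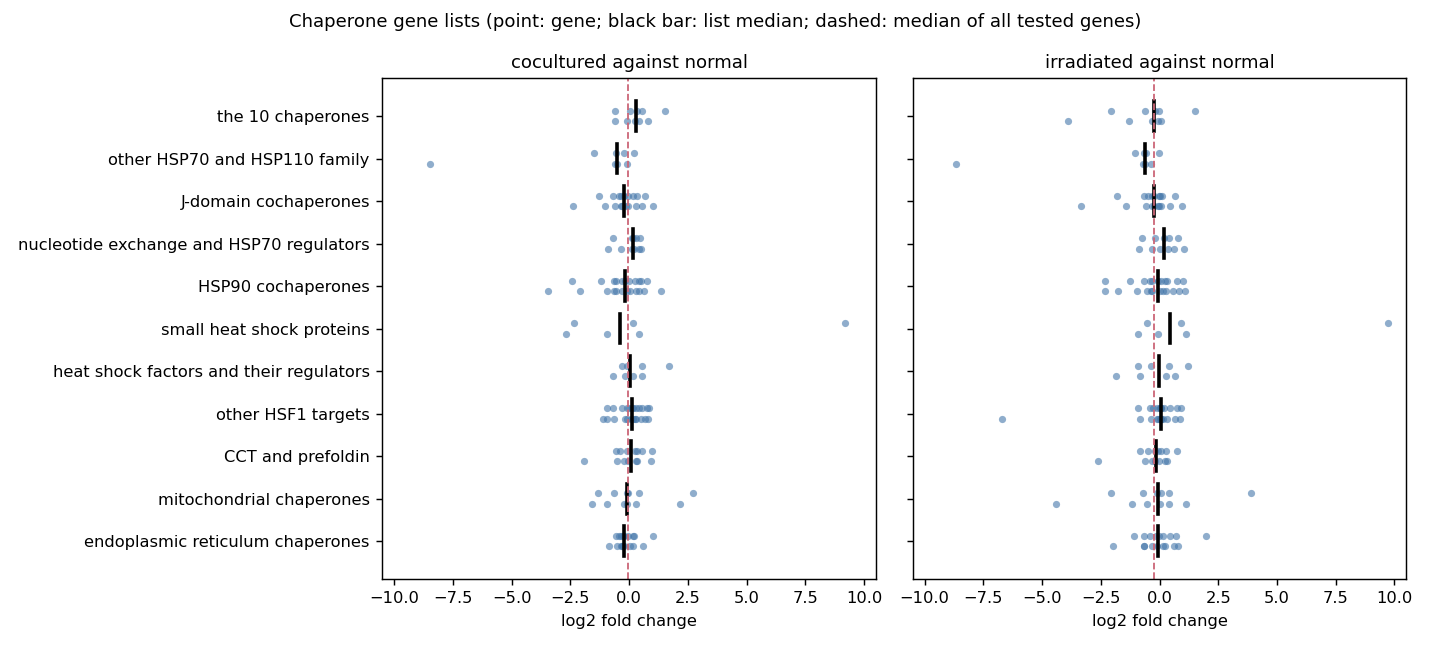
Log2 difference (x axis) of each tested gene (points) in the chaperone lists (y axis), with the median of each list as a bar and the median of all genes as a dashed line, for cocultured and irradiated against normal constructs. Points beyond 8 on either side are Hspa1l, Hspa12a and Hspb3, which lack counts in a whole group, so their fitted values depend on the prior count, and list medians lie between -0.63 and 0.43.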

How the data were processed

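RNA of 9 constructs was read from 3′ ends. Per the labels' protocols, 100 ng of RNA per library went into the QuantSeq FWD kit, followed by single-end reads of 75 bp. The submitters' processing notes name FastQC, STAR, HTSeq and the builds GRCm39 and mm39. Annotation, strand setting and duplicate handling: not given in the sources used here. Near-identical copies and antisense partners may therefore share reads. The authors deposited whole-number counts per gene symbol, not normalised. Column names inside the 9 files differ from the labels, and each file's sample follows the series record. Libraries of 1 group differed by more than sampling (chi-square of 32.6 to 274 per gene), so all 9 were kept as separate replicates.

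Groups came from the titles. Counts were tested with edgeR 4.0.16 in R 4.3.3: filterByExpr kept 11980 genes, TMM factors were 0.556 to 1.29, and 1 quasi-likelihood model of group was fitted to all 9 libraries, with Benjamini-Hochberg adjustment over all genes and a threshold of 0.05. Levels are CPM over effective library sizes, and log2 correlations used a prior count of 2. The fit was tested on simulated data: large planted changes were recovered at a low spread, but none with every gene at the common spread estimated here. DESeq2 1.42.0 and limma 3.58.1 (voom) were alternatives, with other scalings, filters, a replicate term and left-out libraries. Floors are 3 counts and, like intervals, cover counting error only. Named genes were all members, a panel of 10 chaperones, the gene with the smallest p of each list in each comparison (or up to 2 called genes) and the 6 genes most like Hspa4l. The members and lists were chosen with earlier results of these data known. Promoter windows are RefSeq's. Same-numbered libraries of different groups were checked for pairing.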

Additional observations from a re-analysis of the deposited data

How the results depend on the processing

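Of 10 members, 7 kept their sign under all 21 alternatives for cocultured against normal, 4 for irradiated against normal and 8 for irradiated against cocultured, and the cause of the reversals was not tested. For cocultured against normal, Hspa8 (log2 -0.09) was 0.44 with limma voom, 0.74 with library totals and 1.03 without both normal 3 and irradiated 1 (-0.46 to 1.03 with 1 library left out), Hspa1a (0.02) was -0.015 with upper quartile factors and -0.56 without both (-0.56 to 0.47), and Hsp90ab1 was 0.019 with library totals. No member was called under any alternative in this comparison.

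For irradiated against normal, 0 members were called, against 1 with DESeq2, 1 with no filter and 0 to 1 with 1 library left out (1 without irradiated 1). Library totals gave 0.14 for Hspa4, 0.36 for Hspa8, 0.22 for Hsp90ab1 and 0.45 for Dnajb1. Without both libraries Hspa8 was 0.12, Hspa1a -8.16, Hsp90aa1 -0.025 and Dnajb1 0.17, and with 1 library left out they ran from -1.01 to 1.04, -7.48 to 2.10, -0.067 to 0.32 and -0.32 to 0.27. Hspa1a was -1.68 with voom and -0.54 when summed with Hspa1b, and Dnajb1 was 0.062 with DESeq2, 0.060 with its size factors, 0.037 with voom and 0.024 with upper quartile factors.

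For irradiated against cocultured, 1 member was called, against 3 with DESeq2, 2 with voom, 0 when only the 6 libraries compared were fitted and 0 to 1 with 1 library left out (0 without normal 1, normal 3 or cocultured 3). Hspa8 (0.01) was -0.71 with voom, -0.38 with library totals, -0.0027 with 6 libraries and -0.91 without both (-0.92 to 0.45), and Hspa1a (1.5) was -2.77 with voom, -7.59 without both and -1.85 summed (-7.50 to 2.08).

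With the replicate number as a block, 0, 23 and 12 genes were called in the 3 comparisons, against 0, 7 and 4, and 0, 0 and 1 members. Same-numbered libraries had deviations that correlated at -0.0710 to 0.0537, and differently numbered ones at -0.0810 to 0.0944. Over all genes the numbers thus showed no pairing, but a weak effect of a shared dish could go unseen. Under this block Hspa8 was 0.093 for cocultured against normal and -0.10 for irradiated against cocultured, and Hspa1a was -0.81 and -3.02 for irradiated against normal and cocultured. Over all genes, DESeq2 called 178, 682 and 703, voom 0, 25 and 105, and edgeR with no filter 52, 130 and 153. Depth limits Hspa1a and Hspa1b, with 0 to 120 and 0 to 391 counts.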

Other observations

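Chaperones of other compartments were measured beside the cytosolic ones, with 0 genes called in any comparison by edgeR. Lonp1 and Pdia4 were named for the smallest p of their lists in the irradiated comparisons, which favours separate groups. Among 12 mitochondrial chaperones the median log2 difference was -0.05 for irradiated against normal and -0.46 for irradiated against cocultured constructs. Lonp1, the protease and chaperone of the mitochondrial matrix, averaged 15.9 ± 10.03 CPM in irradiated constructs, 66.7 ± 17.1 in normal and 64.4 ± 14.2 in cocultured ones (SD, n = 3). Every irradiated library was below every other one (7.45 to 27.0 CPM against 47.0 to 77.7), with differences of -2.07 ± 0.67 from normal (edgeR adjusted p = 0.412) and -2.01 ± 0.67 from cocultured constructs (edgeR adjusted p = 0.493). Hspa9, the mitochondrial HSP70, averaged 184 CPM in irradiated constructs, 299 in normal and 282 in cocultured ones, and Hspd1, the HSP60 chaperonin, averaged 71.3, 71.2 and 87.8 CPM in that order.

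Among 18 chaperones of the endoplasmic reticulum the medians were -0.23 for cocultured and -0.07 for irradiated against normal constructs. Hspa5 (BiP), the HSP70 of that compartment, averaged 986 ± 85.4 CPM in irradiated constructs, 1541 ± 429 in normal and 1053 ± 306 in cocultured ones (SD, n = 3), and the irradiated libraries lay below the normal ones. Hsp90b1, its HSP90, averaged 719, 1131 and 921 CPM in that order. Pdia4, a disulfide isomerase, was at 283 to 420 CPM in normal and 38.7 to 172 in irradiated libraries (-1.99 ± 0.58, edgeR adjusted p = 0.334).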
